A study of Mus musculus with 2 samples.

Results

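Oxidative phosphorylation draws its proteins from both the mitochondrial and the nuclear genome, and transcripts of the respiratory complexes from the 2 sources were compared here in ependymal cells of the mouse spinal cord. The genes were taken by symbol from the table of EpA cells, a subset of ependymal cells. They are the symbols that begin with mt-, Nduf, Sdh, Uqcr or Atp5, and Cox4 to Cox8 with any suffix. This gave 107 of the 17189 genes of the table. Of these, 13 are the protein-coding genes of mitochondrial DNA and 94 are nuclear. The nuclear genes comprise 81 for subunits of the complexes and 13 for assembly or accessory factors. Ndufa4 and its paralog Ndufa4l2 were grouped with complex IV, the complex in which the Ndufa4 protein is found. The mitochondrial ribosomal RNAs are outside the symbols used.

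All cells came from adult C57BL/6J mice of 12 weeks or more that carried Troy-CreERT2+/- and the Rosa26-tdTomato reporter, in which the tamoxifen-dependent recombinase CreERT2 is made from the Troy locus. The study compared the uninjured cord with the injured cord at 3 days, taking 5 mm of tissue at the lesion or at the same level of the intact cord. Cells positive for tdTomato were sorted and sequenced as 1 single-cell 3′ library per condition, so no difference given here has a replicate check and none was tested. Reporter and genotype were common to both conditions, and the labels do not say how many animals contributed to a library.

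The respiratory chain of the inner mitochondrial membrane passes electrons from NADH (complex I) and succinate (complex II) through complex III and cytochrome c to oxygen at complex IV, and ATP synthase (complex V) uses the resulting proton gradient. Mitochondrial DNA is transcribed as long precursors from each strand that are cut into single RNAs, and its proteins are hydrophobic core subunits of complexes I, III, IV and V. Complex II and most other subunits are encoded in the nucleus, translated in the cytosol and imported. Motile cilia use ATP, and ependymal cells of the resting cord carry them.

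The table of EpA cells had 555 uninjured and 1004 injured members, summing to 7689179 and 25296289 unique molecular identifiers (UMIs). Mean depth was 13854 UMIs per uninjured cell and 25196 per injured cell, a ratio of 1.82. A scaled level is given in CPM, the counts per 1000000 UMIs of the library's EpA cells, and a ratio is injured over uninjured. A range in brackets is the 95% interval that counting error alone gives. The 6 ependymal markers summed to 7690 CPM (uninjured) and 2000 CPM (injured); the other kept cells of the sort had 233 and 238 CPM. Markers of microglia (3.77 and 4.27 CPM over 7 genes), endothelial cells (16.4 and 8.50 CPM over 6 genes) and neutrophils (7.28 and 0.0791 CPM over 2 genes) were low in EpA cells of both libraries. Astrocyte markers stood at 577 and 507 CPM over 5 genes. Pericyte markers went from 28.4 to 130 CPM over 6 genes, and Kcnj8, Myh11 and Pdgfrb were at 0 in the uninjured library. Oligodendrocyte precursor markers went from 0.780 to 43.2 CPM over 5 genes, with Cspg4 at 0 in the uninjured library. The part of these markers in the differences below was not tested. The 2 libraries shared 18 barcode sequences, 2 of them among EpA cells.

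The cells that the authors kept are bounded in the very quantity measured here. Mitochondrially encoded UMIs made up 1.26% to 19.9% of each kept uninjured cell and 1.01% to 19.8% of each kept injured cell. Of the barcodes that were not kept, 87 of 165 uninjured and 237 of 338 injured ones were below 1%, and 77 and 100 were above 20%. The part of these bounds in the comparison was not tested.

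Injured EpA cells gave a smaller share of their UMIs to mitochondrially encoded transcripts and a slightly larger share to nuclear transcripts of the same complexes. Summed over the 13 mitochondrial genes, the level was 111434 CPM (111198 to 111670) without injury and 58366 CPM (58272 to 58460) after it, a log2 ratio of -0.93. Summed over the 94 nuclear genes, it was 23631 CPM (uninjured) and 27612 CPM (injured), a log2 ratio of 0.22. Mitochondrial UMIs numbered 4.72 for each nuclear UMI before and 2.11 after injury. All 13 mitochondrial ratios were below 1, and 64 of 90 nuclear ratios were above 1 among genes with a mean of at least 5 CPM. Over all EpA cells the 2 sets overlapped little: 9 of the 90 nuclear ratios lay below the highest mitochondrial one. The share of all genes below that ratio is not given here. In cells of 10000 to 20000 UMIs the overlap was larger. The highest mitochondrial log2 ratio there, that of mt-Co1, was 0.01, beside a nuclear median of 0.02 and a mitochondrial median of -0.49.

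By size, 6 of 13 mitochondrial genes differed 2-fold or more, each of them lower in injured cells. Among the 3706 genes of the table that reached 50 CPM in one of the libraries, 13.8% were 2-fold lower and 10.9% 2-fold higher (511 and 403 genes), with a median log2 ratio of 0.00. Of the 80 nuclear members past that level, 0 were 2-fold lower and 0 were 2-fold higher. The background split depends on how cells are weighted, with 131 lower and 211 higher genes when each cell counts alike and 52 lower and 109 higher genes among cells of 10000 to 20000 UMIs. With mitochondrial UMIs left out of the totals it was 603 and 373. The count of 6 mitochondrial genes itself fell to 4 with trimmed-mean (TMM) scaling, to 3 without the 5% deepest cells, and to 0 with cells weighted alike, thinned to 2000 UMIs, kept to 10000 to 20000 UMIs or counted per cell.

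**Figure D1:**
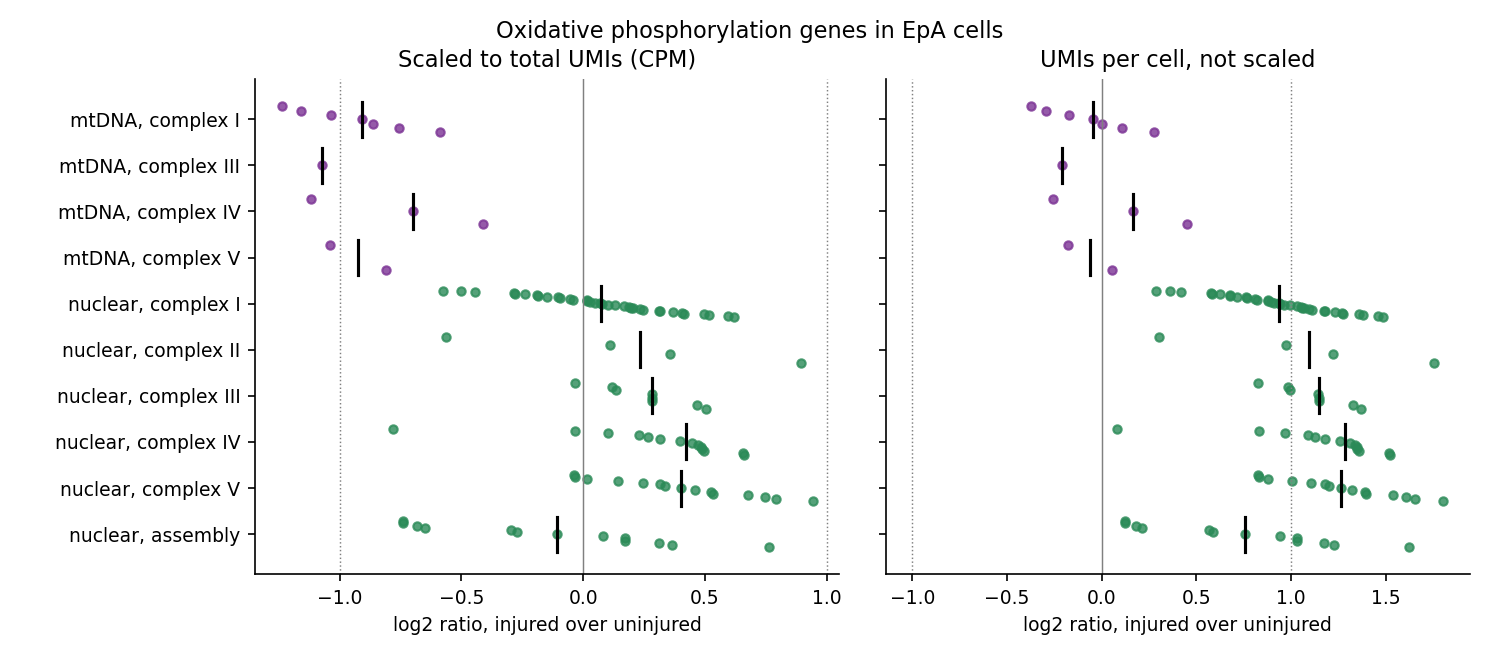
Log2 ratio of injured over uninjured for each measured member, by genome of origin and complex, scaled to total UMIs (left) and as UMIs per cell (right); short vertical bars are medians, dotted lines mark 2-fold, and the height of a point within a row only spreads the points. On the left all 13 mitochondrially encoded genes lie below 0 and the nuclear medians by complex lie between -0.11 and 0.42; on the right the mitochondrial genes straddle 0 and all 90 nuclear genes lie above it.

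Complex I takes 7 subunits from mitochondrial DNA, and they differed among themselves. mt-Nd2, a proton-pumping core subunit, was at 9390 CPM (uninjured) and 3980 CPM (injured), 2.36-fold lower (2.34 to 2.38). mt-Nd4, another membrane core subunit, was at 10793 and 4841 CPM, 2.23-fold lower (2.21 to 2.25). These 2 had the lowest ratios of the 13 genes. mt-Nd6, the one protein gene read from the opposite strand, was at 184 and 90.0 CPM, 2.05-fold lower (1.92 to 2.19). mt-Nd3 was at 2158 and 1151 CPM (log2 ratio -0.91). mt-Nd5 was at 1805 and 994 CPM (-0.86). These genes and the remaining pair for complex I were lower by less than 2-fold. mt-Nd4l was at 1397 and 828 CPM (-0.76). mt-Nd1 was at 2958 and 1971 CPM (-0.59). Within complex I the log2 ratios thus ran from -1.24 to -0.59, a span wider than the counting error of any of the 7.

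For complexes III, IV and V, mitochondrial DNA gives 6 subunits. mt-Cytb, cytochrome b of complex III, was at 14862 CPM (uninjured) and 7070 CPM (injured), 2.10-fold lower. The mitochondrially encoded subunits of complex IV spread the most. mt-Co3 was at 21052 and 9701 CPM, 2.17-fold lower. mt-Co2 was at 11530 and 7108 CPM, 1.62-fold lower. mt-Co1, which holds the site of oxygen reduction, was at 12846 and 9662 CPM, 1.33-fold lower (1.32 to 1.34), the smallest difference of the 13. The ATP synthase subunits followed the group. mt-Atp6 was at 21791 and 10588 CPM, 2.06-fold lower. mt-Atp8 was at 666 and 380 CPM, 1.75-fold lower.

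Expressed as a share of the mitochondrial UMIs alone, which does not depend on the cells' total, mt-Co1 was 11.5% of the uninjured and 16.6% of the injured pool, and mt-Nd2 made up 8.43% and 6.82%. The shift had the same direction in cells of like depth (10000 to 20000 UMIs), at 11.4% and 15.8% for mt-Co1 and 8.49% and 7.23% for mt-Nd2. In the kept cells outside EpA it was 14.3% and 16.2% for mt-Co1 and 7.88% and 5.46% for mt-Nd2. The makeup of the mitochondrial transcripts thus differed between libraries, as did their sum.

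**Figure D2:**
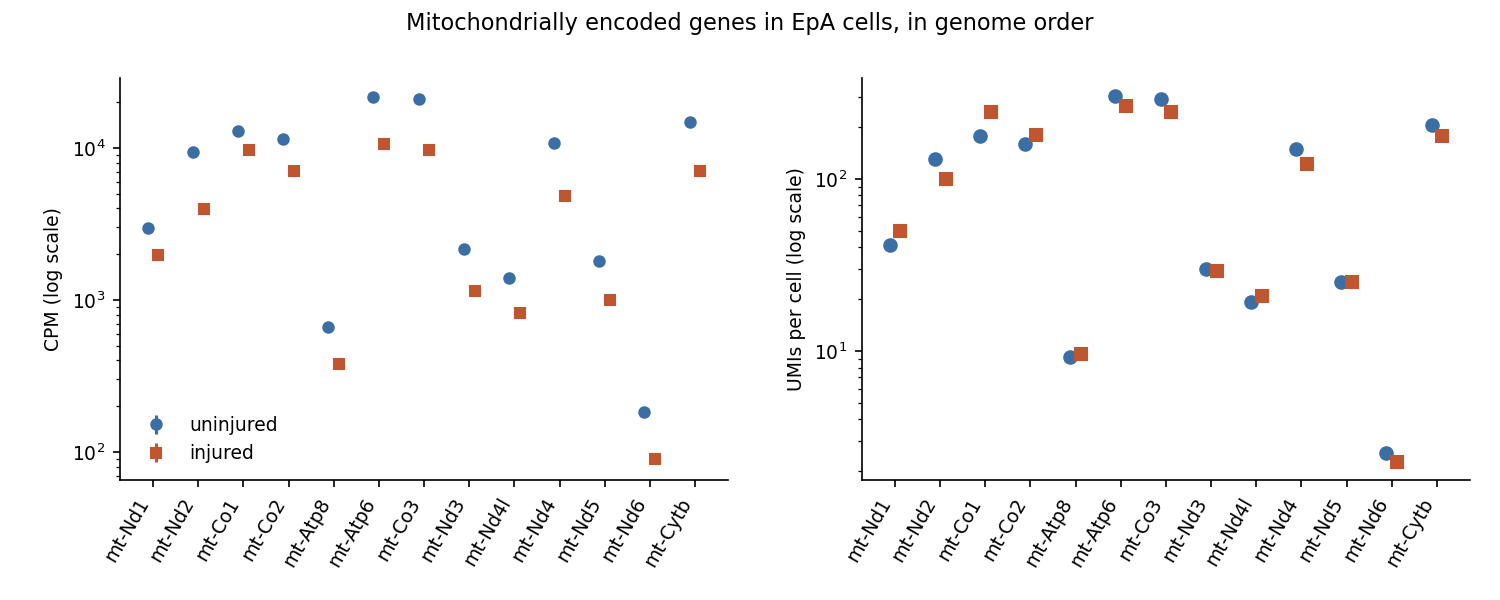
Level of the 13 mitochondrially encoded genes in uninjured (circles) and injured (squares) EpA cells, in CPM on the left and UMIs per cell on the right, both on log axes, with genes in the order of the mitochondrial genome; bars on the left are 95% Poisson intervals and are smaller than the points. Each injured CPM lies below its uninjured partner, whereas per cell 6 of 13 genes are higher in the injured library.

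Several of these genes overlap on the mitochondrial chromosome, which for pairs on the same strand limits how well their UMIs can be told apart. The overlaps are shown because mt-Atp8 and mt-Nd4l are cut out together with a larger neighbour and stay joined to it, and mt-Nd5 and mt-Nd6 share bases on opposite strands. The windows are chrM:7910-7969, chrM:10144-10173 and chrM:13536-13565 of GRCm38 (GENCODE M21), read on the plus strand, and capitals mark the bases that both genes of a pair hold.
mt-Atp8 and mt-Atp6: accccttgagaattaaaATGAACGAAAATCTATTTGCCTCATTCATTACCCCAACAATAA
mt-Nd4l and mt-Nd4: gtccaaaatctcaacctactacaATGCTAA
mt-Nd5 and mt-Nd6: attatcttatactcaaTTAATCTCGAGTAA
The shared stretches are 43, 7 and 14 bases long. The UMI ratio of mt-Atp6 to mt-Atp8 was 32.7 in uninjured and 27.8 in injured cells, and that of mt-Nd4 to mt-Nd4l 7.73 and 5.85. mt-Nd5 had 13880 and 25134 UMIs, and mt-Nd6 had 1418 and 2276. How a read in a shared stretch was assigned is not given in the sources used here, so the values of mt-Atp8 and mt-Nd4l are less certain than those of their partners. For 6 of the 13 genes (mt-Co1, mt-Co2, mt-Co3, mt-Atp6, mt-Nd3 and mt-Nd4l), over 98% of the 31-base words in the last 400 bases also occur in annotated nuclear pseudogenes. None of the closest-matching pseudogenes is listed in the EpA table.

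Nuclear complex I genes were the least shifted of the subunit groups. The 36 genes had a median log2 ratio of 0.07, with 17 intervals above 1, 12 below and 7 that held 1. Of all 10527 measured genes, 35.1% had an interval above 1 and 37.2% one below, which is the background for each such count over all EpA cells. The core subunits, which carry the flavin and iron-sulfur centres, had a median of 0.10 over 7 genes, and the accessory subunits one of 0.07 over 29. The lowest ratios belonged to accessory subunits of the membrane arm. Ndufb10 was at 345 CPM (uninjured) and 231 CPM (injured), 1.49-fold lower (1.42 to 1.56). Ndufb5 was at 473 and 334 CPM (-0.50), and Ndufb3 at 290 and 213 CPM (-0.44). The higher ones included Ndufc2 and Ndufa5. Ndufc2, a membrane accessory subunit, was at 328 and 504 CPM, 1.54-fold higher (1.47 to 1.61). Ndufa5, an accessory subunit of the peripheral arm, was at 144 and 205 CPM (0.52). Its sign turned in cells of like depth (10000 to 20000 UMIs), at 149 and 137 CPM (-0.13), whereas Ndufc2 stayed higher (0.37). Nuclear genes of complex I therefore moved in both directions by less than 2-fold.

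Complex II, encoded in the nucleus alone, had its catalytic and anchor subunits at opposite ends. Sdha, the flavoprotein that oxidises succinate, was at 168 CPM (uninjured) and 114 CPM (injured), 1.48-fold lower (1.38 to 1.58). Sdhb, the iron-sulfur subunit, was at 148 and 159 CPM (0.11). Sdhc, a membrane anchor, was at 80.4 and 103 CPM (0.36). Sdhd, the other anchor, was at 48.2 and 89.7 CPM, 1.86-fold higher (1.67 to 2.08). The complex's median was 0.23 over 4 genes.

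In complex III, 7 of 8 nuclear genes had an interval above 1 and the median was 0.28. The core proteins Uqcrc2 (165 and 161 CPM, -0.04) and Uqcrc1 (109 and 120 CPM, 0.13) and the small subunit Uqcrb (297 and 323 CPM, 0.12) differed least. Other small subunits were further apart. Uqcrq was at 301 and 427 CPM (0.50), Uqcrh at 417 and 577 CPM (0.47) and Uqcr11 at 485 and 591 CPM (0.28). In cells of like depth 3 of the 8 intervals lay above 1, and Uqcrq was at 0.09. Against these, the mitochondrial subunit of the same complex, mt-Cytb, had a log2 ratio of -1.07.

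Complex IV contains subunits with alternative isoforms, and its 14 measured nuclear genes had a median of 0.42, with 12 intervals above 1. Cox7a2l was at 204 CPM (uninjured) and 322 CPM (injured), a log2 ratio of 0.66 (0.58 to 0.74). Ndufa4 was at 350 and 550 CPM, 1.57-fold higher (1.51 to 1.64). The subunit 6A and 7A isoforms of most tissues were also higher. Cox6a1 was at 222 and 313 CPM (0.50), and Cox7a2 at 359 and 503 CPM (0.49); in cells of like depth their ratios were 0.18 and 0.05. Cox7a1, the isoform of heart and skeletal muscle, went the other way, at 23.5 and 13.7 CPM, 1.72-fold lower (1.43 to 2.06), the lowest ratio of the measured nuclear genes. Cox4i1, the common isoform of subunit 4, was at 893 and 959 CPM (0.10), and Cox8a at 961 and 938 CPM (-0.03). Cox6b1 was at 482 and 565 CPM (0.23), and its paralog Cox6b2, known from testis, at 69.7 and 95.2 CPM (0.45). The sign of Cox6b2 turned in cells of like depth, at 68.9 and 58.1 CPM (-0.25), and it was -0.63 in injured cells whose cilium transcripts were in the uninjured range. Other tissue-restricted isoforms were close to undetected. Cox4i2, induced at low oxygen in other tissues, had 5 and 26 UMIs, and Cox7b2 had 3 and 3. Cox6a2 had 0 UMIs in either library, where a limit of 3 counts corresponds to 0.390 and 0.119 CPM. These 3 genes and Ndufa4l2, a paralog of Ndufa4 with 26 and 42 UMIs, were below a mean of 5 CPM and are in no median.

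ATP synthase genes of the nucleus had a median of 0.40 over 15 genes, and 12 of them had an interval above 1 and none an interval below. Among cells of like depth, 7 intervals lay above 1 and 3 below, the latter those of Atp5a1, Atp5h and Atp5j. The alpha subunit gene Atp5a1 (403 and 392 CPM, -0.04), Atp5h for the stalk subunit d (565 and 552 CPM, -0.03) and Atp5j for coupling factor 6 (526 and 532 CPM, 0.02) differed least. The 3 highest ratios belonged to genes of the membrane part. The 15 genes did not divide by part, as several outside the membrane part had higher ratios than Atp5g3 (0.14). Atp5j2, for subunit f, was at 351 and 589 CPM, 1.68-fold higher (1.61 to 1.75). The c ring, the rotor that protons drive, is encoded by 3 genes whose mature proteins are the same, and these differed. Atp5g1 was at 216 CPM (uninjured) and 416 CPM (injured), 1.92-fold higher (1.83 to 2.03), the highest ratio of the nuclear members over all EpA cells. Atp5g2 was at 404 and 700 CPM, 1.73-fold higher (1.67 to 1.80). Atp5g3 was at 198 and 219 CPM, 1.11-fold higher (1.05 to 1.17). The interval of Atp5g3 lay apart from those of its paralogs. In cells of like depth the log2 ratios were 0.36 for Atp5g1, 0.35 for Atp5g2, 0.02 for Atp5g3 and 0.39 for Atp5j2. The highest nuclear ratio there was that of Cox7a2l (0.91). For injured cells whose cilium transcripts were in the uninjured range, they were 0.16 for Atp5g1, 0.13 for Atp5g2, -0.15 for Atp5g3 and 0.22 for Atp5j2. Part of the sequence of Atp5g1 and Atp5g2 recurs in pseudogenes (45.6% and 53.8% of the 31-base words compared), so their values carry that uncertainty, as do those of Atp5l, Atp5h, Uqcrb and Ndufs3 (over 50%).

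The promoters of the 3 genes for subunit c are shown because one encoded protein is here read from 3 differing control regions. They run from 250 bases before to 50 bases after the start (RefSeq, GRCm38.p6, all on the minus strand, printed in the gene's direction) at chr11:96075582-96075881, chr15:102670998-102671297 and chr2:73911277-73911576. Capitals mark a match, on either strand, to GCGCA and GCGC with any base between them, the motif of NRF1, a transcription factor known for its sites in nuclear respiratory genes.
Atp5g1: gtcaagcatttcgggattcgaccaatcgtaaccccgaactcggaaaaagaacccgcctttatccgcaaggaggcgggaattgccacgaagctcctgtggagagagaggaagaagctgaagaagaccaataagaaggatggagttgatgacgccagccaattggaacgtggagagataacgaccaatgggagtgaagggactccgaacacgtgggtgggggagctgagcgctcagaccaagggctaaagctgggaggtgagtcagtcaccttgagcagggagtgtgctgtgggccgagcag
Atp5g2: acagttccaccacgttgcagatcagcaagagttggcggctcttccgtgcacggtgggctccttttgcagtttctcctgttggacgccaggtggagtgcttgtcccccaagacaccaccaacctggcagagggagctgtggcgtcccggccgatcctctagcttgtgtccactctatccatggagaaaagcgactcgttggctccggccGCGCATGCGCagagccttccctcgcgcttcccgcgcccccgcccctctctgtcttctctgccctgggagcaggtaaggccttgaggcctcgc
Atp5g3: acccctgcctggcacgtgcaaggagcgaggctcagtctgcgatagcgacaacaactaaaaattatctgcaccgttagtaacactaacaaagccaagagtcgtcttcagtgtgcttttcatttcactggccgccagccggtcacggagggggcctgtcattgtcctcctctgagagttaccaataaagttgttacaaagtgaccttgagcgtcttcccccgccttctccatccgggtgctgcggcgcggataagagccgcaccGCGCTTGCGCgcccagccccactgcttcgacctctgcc
The motif lies in the windows of Atp5g2 and Atp5g3 and not in that of Atp5g1. Over the 76 of 94 nuclear members with a promoter entry, 27.6% had it in any of their entries, against 5.19% of all 27025 genes with an entry. CCGGAAG, a site of the ETS family that includes Gabpa, searched on both strands, occurred in 26.3% of members and 9.93% of all. The 21 members with the NRF1 motif had a median log2 ratio of 0.17 and the 54 measured members without it one of 0.24, and for the ETS motif the medians were 0.22 over 20 genes and 0.23 over 55. Members with and without a motif had close medians.

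Genes for assembly and accessory factors were the one nuclear group with a median below 0, at -0.11 over 13 genes, with 3 intervals above 1 and 5 below. Sdhaf1, which helps mature the iron-sulfur subunit of complex II, was at 53.5 CPM (uninjured) and 32.0 CPM (injured), 1.67-fold lower (1.48 to 1.88). Ndufaf3, a complex I assembly factor, was at 109 and 68.1 CPM, 1.60-fold lower (1.48 to 1.74). Atp5s, an ATP synthase coupling factor, had 115 and 227 UMIs (-0.74). Higher ones were complex I factors. Ndufaf5 was at 5.33 and 9.13 CPM (0.76), Ndufaf1 at 17.9 and 23.2 CPM (0.36) and Ndufaf2 at 75.4 and 93.7 CPM (0.31). These values are over all EpA cells. In cells of like depth 0 of the 13 intervals lay above 1 and 1 below, that of Sdhaf1 (-0.60). The other genes named here kept their sign there, with intervals that held 1, and Ndufaf3 was at -0.15. Ndufaf3 was at 0.27 in injured cells whose cilium transcripts were in the uninjured range and at -1.21 in those below it.

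Counted per cell without scaling, nuclear members were higher in injured cells, as was the median gene, and mitochondrial sums were close. The mean EpA cell had 1544 mitochondrial UMIs when uninjured and 1471 when injured, a ratio of 0.953. It had 327 and 696 nuclear UMIs of these complexes, a ratio of 2.12. Medians per cell were 1286 and 1279 mitochondrial UMIs and 279 and 495 nuclear UMIs. Per-cell log2 ratios of the mitochondrial genes ran from -0.38 (mt-Nd2) to 0.45 (mt-Co1), with 6 of 13 above 0 and 0 of 13 2-fold in either direction. All 90 measured nuclear genes were above 0, and 46 of the 80 past 50 CPM were 2-fold higher, where 42.4% of all such genes were 2-fold higher and 1.48% 2-fold lower. The per-cell median was 1.05 for nuclear members, -0.04 for mitochondrial genes and 0.87 for all genes past 50 CPM. The nuclear median was thus the nearer of the 2 to that of all genes. By complex the nuclear per-cell medians were 0.94 for I, 1.10 for II, 1.15 for III, 1.29 for IV, 1.27 for V and 0.76 for assembly factors. Counts of 2-fold higher genes by complex were 15 of 36 for I, 2 of 4 for II, 5 of 8 for III, 11 of 13 for IV, 12 of 15 for V and 1 of 4 for assembly factors, against the 42.4% of all genes.

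Within each complex the 2 sources of subunits parted in the same direction. Mitochondrial UMIs per nuclear UMI went from 3.27 to 1.52 in complex I, from 6.86 to 2.64 in complex III, from 7.52 to 3.54 in complex IV and from 3.99 to 1.48 in complex V. In cells of 10000 to 20000 UMIs the same ratios went from 3.26 to 2.17, from 6.74 to 3.93, from 7.31 to 5.52 and from 3.90 to 2.43. All 4 were lower in the injured library on either basis.

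**Figure D3:**
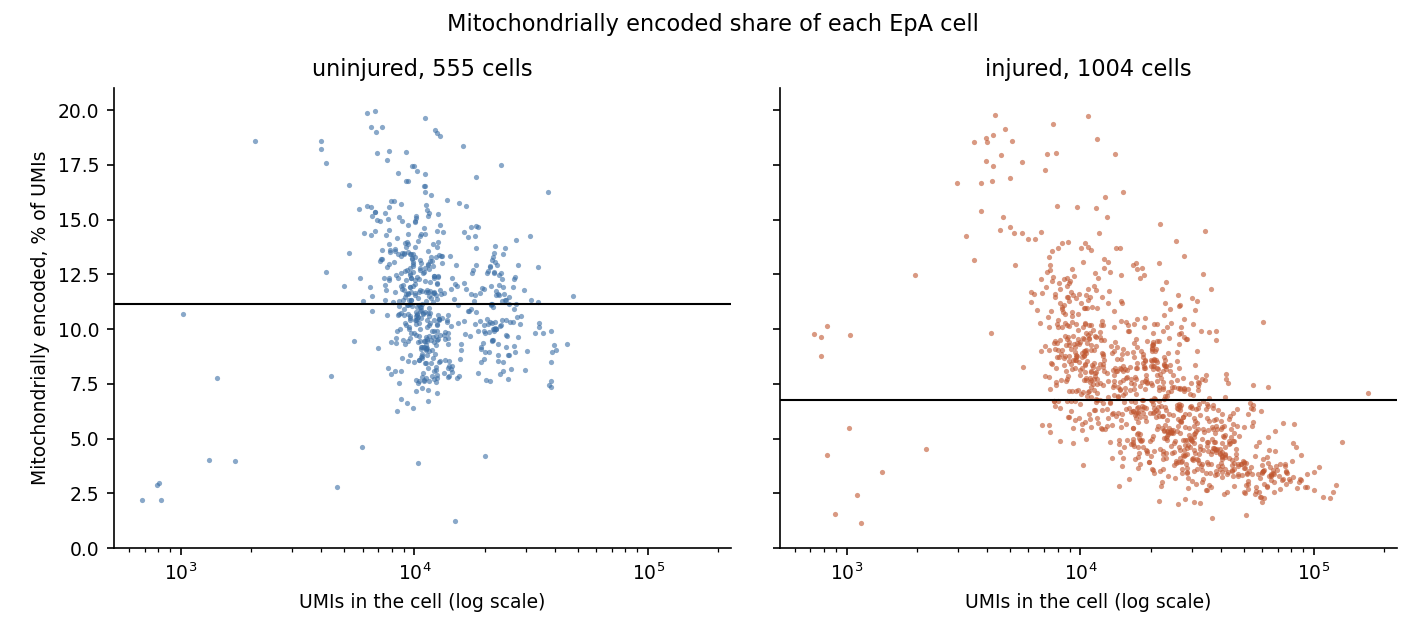
Share of mitochondrially encoded UMIs in each EpA cell (% of the cell's UMIs) against the cell's total UMIs on a log axis; each point is 1 cell and the horizontal line is the library's median, 11.2% without and 6.76% with injury. Injured cells reach higher totals, and their share is lower where the total is higher.

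Cells differed in depth, and the contrast was present but smaller between cells of like depth. The median EpA cell gave 11.2% (uninjured) or 6.76% (injured) of its UMIs to mitochondrial genes, and 2.36% and 2.57% to nuclear members. Across cells, Spearman's rho between the mitochondrial share and the total was -0.23 over 555 uninjured and -0.68 over 1004 injured cells, and for the nuclear share it was 0.00 and 0.46. Share and total come from the same counts, so these describe the cells and are not tests. Among cells of 5000 to 10000 UMIs the median mitochondrial share was 12.4% in 158 uninjured and 9.52% in 156 injured cells. At 10000 to 20000 UMIs it was 10.7% in 272 and 7.83% in 310 cells, and at 20000 to 40000 UMIs 10.4% in 106 and 5.90% in 336 cells. The injured median was the lower one at each of these depths, and the gap was wider in deeper cells. Below 5000 UMIs the order was opposite, at 15.1% in 8 and 16.7% in 20 cells, and above 40000 UMIs there were 3 uninjured cells. The nuclear share was close in shallow cells (2.37% and 2.38% at 5000 to 10000 UMIs) and parted in deeper ones (2.31% and 2.63% at 20000 to 40000 UMIs).

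**Figure D4:**
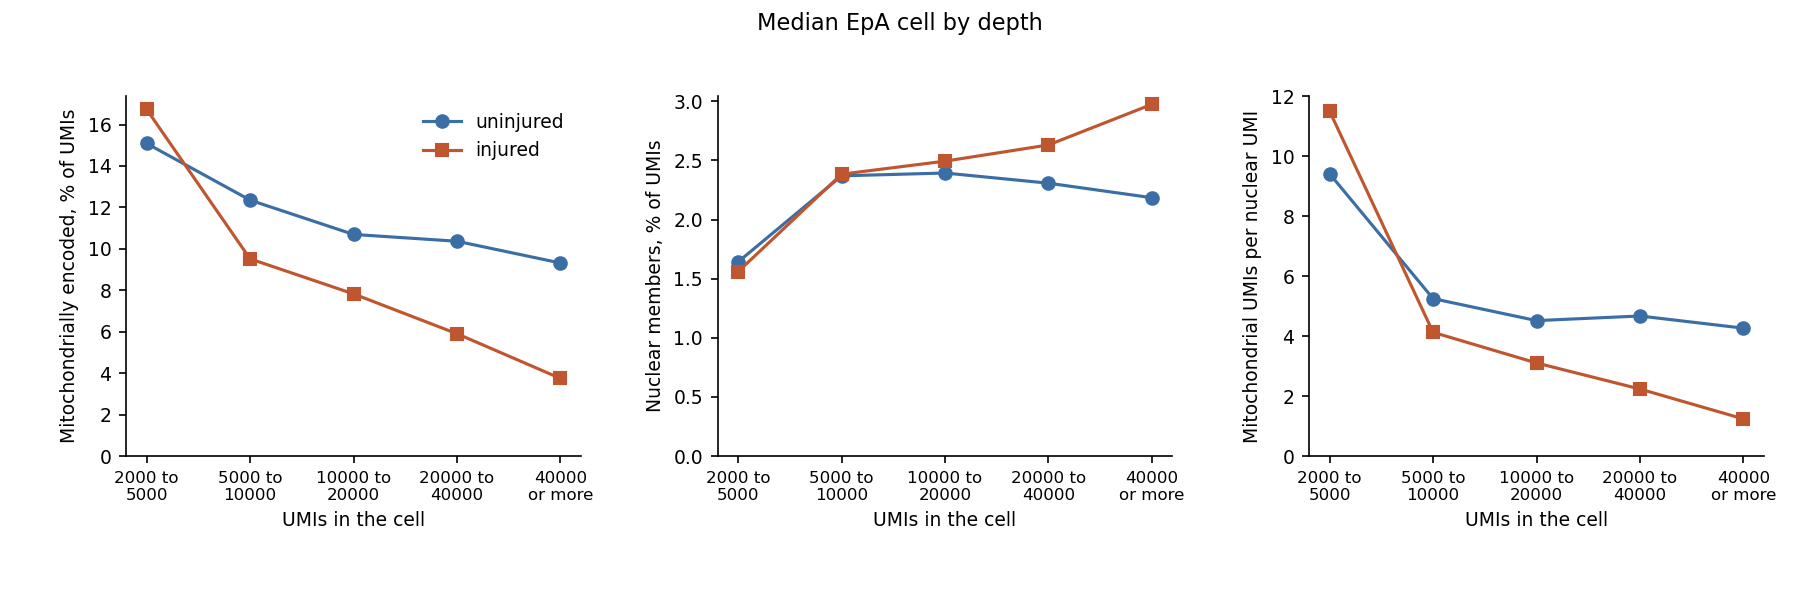
Median share of mitochondrially encoded UMIs (left), of nuclear members (middle) and mitochondrial UMIs per nuclear UMI (right) for EpA cells grouped by total UMIs; circles are uninjured and squares injured cells. Between 5000 and 40000 UMIs the injured medians lie below the uninjured ones on the left and right; the lowest group holds 8 and 20 cells and the uppermost 3 and 170.

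With each cell thinned to 2000 UMIs, 587 of 992 injured cells (59.2%) fell below the 5th percentile of uninjured cells in mitochondrial UMIs. Restricted to cells of 10000 to 20000 UMIs before thinning, 147 of 310 did (47.4%). These shares describe the cells of 1 library per condition. For nuclear members, 178 of 992 injured cells (17.9%) were above the uninjured 95th percentile, and 28 of 310 (9.03%) at like depth. At that depth the median log2 ratio of the 13 mitochondrial genes was -0.49, with 12 intervals below 1, where 17.9% of all measured genes had one below and 17.7% one above. The exception was mt-Co1, at 12612 and 12658 CPM (0.01, -0.01 to 0.02). The median of the 90 nuclear genes was 0.02, and by complex it was -0.01 for I, 0.02 for II, 0.11 for III, 0.06 for IV, 0.10 for V and -0.15 for assembly factors. The medians of complexes IV and V were closer to 0 here than over all cells. Of the 90 nuclear genes, 26 had an interval above 1 and 13 one below, and 17 took the other sign, 16 of them from above to below 0. Among these were Ndufa5, Cox6b2, Cox5a (0.47 over all cells and -0.07 here), Sdhb, Uqcrc1, Uqcrb and Atp5j. The share of all genes that took the other sign is not given here, so the count is not read as a trait of the members. Some members kept their difference at this depth: Cox7a2l was at 207 and 388 CPM (0.91), Uqcrh at 434 and 604 CPM (0.48) and Cox7a1 at 26.4 and 17.2 CPM (-0.62).

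Injured cells were also divided by 35 cilium genes, a split from measured values that is given as a description. Of the thinned injured cells, 424 had cilium UMIs within the range of the uninjured cells, at or above their 5th percentile, and 568 were below. Median totals were 11474 UMIs in the 521 uninjured cells in range, 11671 in the injured cells in range and 28149 in those below, so depth moved with the split. The summed mitochondrial log2 ratio against uninjured cells in range was -0.33 for injured cells in range and -1.19 for those below, and the nuclear one was 0.03 and 0.28. The median mitochondrial share was 8.75% in injured cells in range and 11.2% in uninjured cells in range. Being in range sets only a lower bound on cilium UMIs, and the part of cilium transcripts and depth was not tested. At 10000 to 20000 UMIs the median share was 10.7% in uninjured cells in range, 8.32% in injured cells in range and 7.06% in injured cells below. By gene, injured cells in range had mt-Co1 at 0.02 and mt-Nd4l at 0.07, the highest ratios, and mt-Nd3 at -0.53, the lowest. Injured cells below the range had mt-Nd2 at -1.63, mt-Nd4 at -1.57 and mt-Co1 at -0.58. Median nuclear ratios in those cells were 0.55 for complex IV, 0.51 for V, 0.32 for III, 0.30 for II, 0.09 for I and -0.20 for assembly factors.

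Genes that make, import or serve the complexes were counted by the same size rule (percentages of all genes above). Values of this and the lists that follow are over all EpA cells, and none is given for cells of like depth. Cytochrome c, the electron carrier between complexes III and IV, is encoded by Cycs, at 99.6 CPM (uninjured) and 172 CPM (injured), 1.72-fold higher (1.59 to 1.86). Cyc1, the nuclear cytochrome of complex III, was at 102 and 146 CPM, 1.44-fold higher (1.33 to 1.55). Of 26 assembly and regulatory genes with other symbols, 9 were past 50 CPM and 1 was 2-fold higher. That gene was Uqcc2, a complex III assembly factor, at 117 and 240 CPM, 2.06-fold higher (1.92 to 2.21). The list's median was -0.08, below that of the subunits.

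Genes that copy and express mitochondrial DNA had a median of -0.19 over 12 measured genes, 9 of them with a ratio below 1. Of these genes, 0 of 3 past 50 CPM were 2-fold different. The median of the 13 mitochondrial genes was -0.91, and a link between the 2 sets was not tested. Tfam, which packages mitochondrial DNA and starts its transcription, was at 65.4 CPM (uninjured) and 47.4 CPM (injured), 1.38-fold lower (1.24 to 1.53). Polrmt, the mitochondrial RNA polymerase, was at 7.41 and 7.19 CPM (-0.05). Mterf1a and Mterf4, of the mitochondrial transcription termination factor family, were at 12.7 and 6.80 CPM (-0.91) and at 45.0 and 27.8 CPM (-0.70). Regulators of nuclear respiratory genes were sparse, with 0 of 6 past 50 CPM. Ppargc1a, a coactivator of mitochondrial biogenesis, was at 32.9 and 14.8 CPM, 2.23-fold lower (1.89 to 2.62), below the level at which genes were called, and its paralog Ppargc1b was at 4.03 and 1.03 CPM. Nrf1 was at 16.8 and 19.4 CPM (0.21, -0.07 to 0.50), Gabpa at 24.2 and 24.5 CPM (0.01) and Esrra at 6.24 and 9.37 CPM (0.57).

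Lists for mitochondrial translation and import had medians of 0.31 and 0.60, beside 0.42 and 0.40 for the nuclear subunits of complexes IV and V and 0.07 for those of complex I. In cells of like depth the medians of complexes IV and V were 0.06 and 0.10. No difference between lists was tested. The 76 measured mitochondrial ribosomal protein genes had 4 of 55 past 50 CPM that were 2-fold higher and 0 that were 2-fold lower. Those 4 were Mrps6 (114 and 512 CPM, 2.16), Mrpl54 (32.9 and 108 CPM, 1.72), Mrpl12 (53.2 and 120 CPM, 1.17) and Mrpl33 (log2 ratio 1.11). Of the 21 measured protein import genes, 14 were past 50 CPM and 0 were called. Among them, Tomm40, the pore of the outer membrane, was at 57.7 and 107 CPM (0.89). Tricarboxylic acid cycle genes had a median of 0.01 over 13 genes, and 0 of 11 were 2-fold different. Cs, citrate synthase, was at 31.5 and 61.7 CPM, 1.96-fold higher (1.71 to 2.26). Carriers, porins and chaperonins had a median of 0.34 over 8 genes with none called, led by the porin Vdac1 at 165 and 278 CPM (0.75). The median was above 0 in 6 of these 8 lists and below 0 in those for assembly and mitochondrial DNA expression.

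Outside EpA, the libraries held 156 uninjured and 224 injured kept cells of several types. Mitochondrial genes summed to 65908 CPM (uninjured) and 43348 CPM (injured) (log2 ratio -0.60), and nuclear members to 20602 and 27487 CPM (0.42). All 13 mitochondrial ratios were below 1, from -1.13 for mt-Nd2 to -0.11 for mt-Nd4l, with 11 intervals below 1, as had 34.2% of all 11077 genes measured there. In these cells 18.3% of 3762 genes past 50 CPM were 2-fold lower and 12.4% 2-fold higher. mt-Nd2 was the one mitochondrial gene called, at 5191 and 2365 CPM, and Uqcrq the one nuclear gene, at 244 and 506 CPM (1.05). The log2 ratios of the c ring genes were 0.95 for Atp5g1, 0.79 for Atp5g2 and 0.40 for Atp5g3. Mean UMIs per cell were 8216 and 31115 here, and mitochondrial UMIs per cell were 542 and 1349, and per cell the mitochondrial sum was 2.49-fold and the nuclear sum 5.05-fold higher.

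The makeup of these cells differed between libraries, and this cannot be told apart from a change within types in the sum. Neutrophil markers summed to 11139 CPM (uninjured) and 1.58 CPM (injured), and haemoglobin markers to 8273 and 0 CPM. The 380 cells formed 10 clusters when grouped without the members, and a cluster was named only where its fixed markers led. The astrocyte-like cluster held 29 uninjured and 6 injured cells and had the highest mitochondrial level, at 127051 and 91286 CPM. Without it the remaining cells had a mitochondrial log2 ratio of -0.30 and a nuclear one of 0.52. This exclusion was chosen after seeing the data. The microglia-like cluster held 24 and 1 cells, and an endothelial-like cluster led by Igfbp3 and Plvap held 4 and 61, so neither can be compared.

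In the 5 clusters with at least 10 cells in each library, the mitochondrial sum did not take 1 direction. In the endothelial-like cluster led by Ackr1 and Vwf (26 and 18 cells) it was 46685 CPM (uninjured) and 52394 CPM (injured), a ratio of 1.12 (1.10 to 1.15). In an unnamed cluster with haemoglobin and endothelial genes (20 and 18 cells) it was 60306 and 63593 CPM, a ratio of 1.05. The injured cells outside EpA had 0 CPM of haemoglobin markers, so the cells of this cluster may not be of 1 type in the 2 libraries. In the fibroblast-like cluster (10 and 21 cells) it was 70778 and 36248 CPM, 1.95-fold lower, while median totals were 12882.5 and 40885 UMIs. In an unnamed cluster led by S100a8 and S100a9 (16 and 30 cells) it was 53221 and 38449 CPM, 1.38-fold lower, although the injured cells outside EpA had almost no neutrophil marker UMIs, so its cells may not be of 1 type in the 2 libraries. In an unnamed cluster led by Mmp13 and Ibsp (21 and 35 cells) it was 62925 and 50454 CPM, 1.25-fold lower. The 3 clusters with a lower injured value also differed more in median total than the other 2, and the part of depth was not tested. Nuclear sums had ratios from 1.02 (0.973 to 1.07) to 1.39 in 4 of these clusters, and 2.89 in the cluster led by Mmp13, whose uninjured cells had a median of 953 UMIs. EpA cells of the uninjured cord, at 111434 CPM, were above each of these 5 clusters in mitochondrial level. They were below the 29 uninjured cells of the astrocyte-like cluster (127051 CPM).

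**Figure D5:**
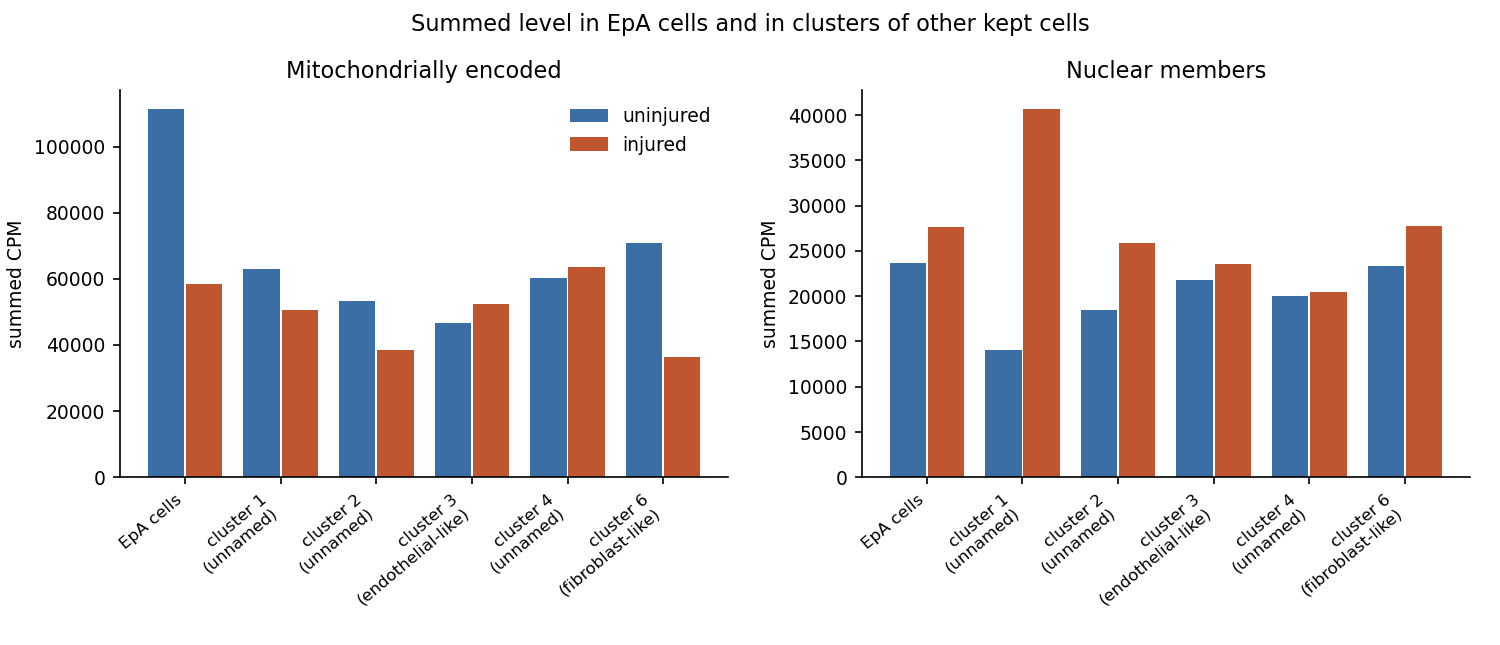
Summed CPM of the mitochondrially encoded genes (left) and the nuclear members (right) in EpA cells and in the 5 clusters of other kept cells with at least 10 cells per library; 1 bar is 1 library, cluster 1 is led by Mmp13, 2 by S100a8, 3 by Ackr1 and 4 by haemoglobin genes. The mitochondrial level is lower in injured cells for EpA and 3 clusters and higher for 2 clusters, and the nuclear level is higher in injured cells throughout.

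Of the isoforms near the detection limit in EpA cells, Ndufa4l2 had most of its UMIs elsewhere. In the fibroblast-like cluster it had 2 UMIs in 10 uninjured cells and 118 UMIs in 21 injured cells, 15.8 and 111 CPM, out of 3 and 124 UMIs in all kept cells outside EpA. Cox4i2 had 11 of its 14 injured UMIs outside EpA in the same cluster. Cox6a2 had 0 and 9 UMIs outside EpA.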

How the data were processed

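Single-cell 3′ libraries of sorted tdTomato-positive spinal cord cells were compared, 1 per condition. The deposited values are raw UMI counts per gene and cell, not normalised by the authors as their whole numbers show. Cell Ranger 3.0.1, Seurat and the mm10 build are named per the submitters' processing notes; the gene annotation used for counting is not given in the sources used here. Cells of the EpA table and of the table of all kept cells (711 uninjured and 1228 injured) were matched by library and barcode to the per-library tables. Counts in shared cells and genes were identical between tables.

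Counts were summed over EpA cells per library and scaled to CPM. A log2 ratio adds 0.5 counts to each sum. The 95% intervals are exact: Poisson for a level and conditional binomial for a ratio. They cover counting error and not animals, since cells are not replicates. With 1 library per condition there was no test. A gene was called by size where it reached 50 CPM in one library and differed 2-fold, and entered medians at a mean of 5 CPM. The members and gene lists were chosen with earlier results of these data known. Text names all mitochondrial genes, the 3 highest and 3 lowest nuclear ratios of each complex and of assembly factors, isoform pairs, and of each other list regulators and up to 3 genes with large ratios. A gene that this rule names is not reported here. Esrra, Ppargc1b, Tomm40, Mrpl12, Mrpl33 and genes that stand out at like depth or in clusters were picked after their values were seen.

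Thinning to 2000 UMIs left out 8 uninjured and 12 injured EpA cells. No doublet caller was run; an alternative drops the 5% deepest cells. The 380 kept cells outside EpA were clustered without the members (2000 variable genes, 20 principal components, 15 neighbours, Leiden resolution 0.5, scanpy 1.11.5), and a name needed at least 3 fixed markers above 100 CPM, one of them among the top 10 genes and more than for any other class. The resolution, and the condition that other leading genes not go against a name, were set after the clusters were seen. Other alternatives used TMM factors of edgeR 4.0.16 on the summed counts, other totals, weights and floors. The size rule was tested on simulated counts. Positions come from GENCODE M21 (106 of 107 symbols found), and Atp5o overlaps a second entry of that symbol. Reads of pseudogene copies could not be followed.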

Additional observations from a re-analysis of the deposited data

Results flagged for a closer look

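Barcodes that the authors did not keep enter no comparison above. In these, mitochondrially encoded genes summed to 187830 CPM in 165 uninjured and 118528 CPM in 338 injured barcodes, higher than in EpA cells of either library. They mix barcodes below 1% and above 20% mitochondrial UMIs.

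Ndufa4l2 had ratios of opposite sign in the 2 sets of cells, with a log2 ratio of -1.04 in EpA cells (26 and 42 UMIs) and 2.71 outside EpA (3 and 124 UMIs). The difference between the sets was not tested, and both levels were below 50 CPM.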

How the results depend on the processing

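The mitochondrial sum (log2 ratio -0.93) was lower under all 7 alternatives and the nuclear sum (0.22) higher. In the order mitochondrial, nuclear, the values were -0.86 and 0.29 with TMM, -1.02 and 0.14 without mitochondrial UMIs in the total, -0.0702 and 1.09 per cell, -0.64 and 0.14 with cells weighted alike, -0.66 and 0.15 thinned to 2000 UMIs, -0.47 and 0.0652 at 10000 to 20000 UMIs, and -0.84 and 0.21 without the 5% deepest cells. The mitochondrial minus nuclear median (-1.10) was -0.82 weighted alike, -0.78 thinned and -0.51 at 10000 to 20000 UMIs. Of the 6 mitochondrial genes 2-fold lower, 3 were counted without the deepest cells and 0 per cell, 0 weighted alike, 0 thinned and 0 at 10000 to 20000 UMIs. Nuclear genes 2-fold lower numbered 2 with no CPM floor (Ndufa4l2 and Cox7b2), and 2-fold higher 1 with TMM (Atp5g1) and 46 per cell. Dropping mitochondrial UMIs from the totals moved the median of all genes from 0.00 to -0.11, and counting per cell to 0.87.

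No paired analysis was possible because each condition had 1 library. Animals, sort and library cannot be told apart from injury. The kept range of 1% to 20% caps the mitochondrial share in both libraries, and few uninjured cells exceed 40000 UMIs. Genes under 5 CPM, such as Cox4i2 and Ndufa4l2, are limited by counts.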
